A study of Mus musculus with 4 samples.

Results

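Rhox5, Rhox8, Eppin and Aard are 4 genes that Sertoli cells transcribe and that are widely read as a gauge of androgen action in the testis. They were taken by name, with earlier results of these data known, and all 4 were found by symbol among the 32285 genes of the deposited single-cell matrices. Their UMIs, the molecule-tagged reads that stand for single captured transcripts, were summed per library over Sertoli, Leydig, myoid and germ cells. Testicular organoids (TOs) were compared with mouse testes, and the TO library with the lower Leydig level of Cyp17a1 was set beside the other TO library. The study used scRNA-seq on the 10x Genomics platform, with 2 TO libraries and 2 testis libraries, hereafter TO replicates 1 and 2 and testis replicates 1 and 2. TOs were grown from dissociated testes of neonatal ICR pups. They were kept first as spheroids in basement membrane extract and later free of it, in serum replacement medium with antioxidants, FSH and testosterone. All TO Sertoli cells had therefore been given androgen in the medium, in addition to any made by their own Leydig cells. The design text gives 28 days for both TOs and testes. The methods of the study also give day 28 for the TOs, whereas the dissociation protocol in the labels names day 21. For TOs these are days of culture and for testes the age of the mice, so the groups were not matched in time since birth. No genotype or treatment beyond this is given. According to the study, the organoids for sequencing were made in separate batches and the testes were biological replicates. How many animals or cultures went into a library is not given in the sources used here, and the p-values measure the spread between these libraries.

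Androgen reaches the seminiferous tubule from Leydig cells, which turn cholesterol into testosterone through Star, Cyp11a1, Hsd3b1, Cyp17a1 and Hsd17b3 under the control of the luteinizing hormone receptor Lhcgr. Sertoli cells respond to androgen by changing transcription, and germ cells need this response to complete meiosis. Rhox5 encodes an X-linked homeobox factor and is the most used androgen-response gene of Sertoli cells. Rhox8 is another homeobox gene of the same X-linked cluster. Eppin encodes a protease inhibitor that coats sperm and is also made in the epididymis. Aard encodes an alanine- and arginine-rich protein named for its sequence.

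By GENCODE vM21, on the GRCm38 assembly (mm10 in the labels), Rhox5 (ENSMUSG00000095180) lies at chrX:37804842-37808876 on the plus strand. Rhox8 (ENSMUSG00000064137) lies 65.9 kb further on, at chrX:37874778-37878944 on the minus strand. Eppin (ENSMUSG00000017733) lies at chr2:164588343-164593594 on the minus strand, and Aard (ENSMUSG00000068522) at chr15:52040107-52045722 on the plus strand. All 4 are protein-coding, and no other annotated gene overlaps any of them on either strand. Windows before the RefSeq starts of the 2 members called lower in TOs are shown, because they can be searched for a hexamer of the androgen response element. They come from RefSeq (GRCm38.p6), are written 5′ to 3′ on the strand of the gene and end before the transcription start. The window of Rhox5 (chrX:37754358-37754607, plus strand) precedes the RefSeq start, which lies 50.2 kb before the GENCODE start. The sequence just before the GENCODE start was not searched, and which start Sertoli cells use was not tested. The window of Eppin (chr2:164593595-164593821, minus strand) precedes both starts. Capitals mark the hexamer AGAACA or its reverse complement TGTTCT.
Rhox5: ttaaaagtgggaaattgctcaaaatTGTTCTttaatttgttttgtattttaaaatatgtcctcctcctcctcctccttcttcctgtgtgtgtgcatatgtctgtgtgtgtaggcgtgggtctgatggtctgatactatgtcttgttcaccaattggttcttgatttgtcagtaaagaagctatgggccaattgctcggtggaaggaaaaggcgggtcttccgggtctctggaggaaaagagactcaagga
Eppin: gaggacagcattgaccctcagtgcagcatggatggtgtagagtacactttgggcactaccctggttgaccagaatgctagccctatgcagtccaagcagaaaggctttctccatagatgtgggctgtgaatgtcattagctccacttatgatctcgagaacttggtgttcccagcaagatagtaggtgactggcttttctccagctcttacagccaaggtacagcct
The hexamer was present 1 time in the window of Rhox5 and was not found in that of Eppin. It was present in 16.1% of the 250-base windows before all 32851 RefSeq starts, so a match is a description and no sign of binding. Only exact copies of a single hexamer were searched for. Near matches and pairs of hexamers were not, so the counts do not rank the 2 windows.

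The libraries held 11826 to 14643 barcodes and 74988295 to 119966959 UMIs, and each pair of libraries shared between 30 and 55 barcodes. After filtering, the Sertoli class held 1551 and 733 cells in TO replicates 1 and 2 and 351 and 151 cells in testis replicates 1 and 2, with 14335722, 7441352, 2327314 and 1150180 UMIs. The Sertoli markers Sox9, Wt1, Cldn11, Fshr and Dhh were present in every library, from 101 CPM (UMIs of a gene scaled to 1000000 UMIs of the class) upwards. Amh was at 1.08 to 22.3 CPM, and Krt18 was at 0 in both testis libraries. The class joined 4 clusters. Most cells of testis replicate 2 formed a cluster of their own (105 of 151 cells), whereas most cells of the other libraries shared another, so values are also given within these clusters. Testis Sertoli sums carried spermatid RNA. The 6 germ cell genes listed as a gauge (Tnp1, Tnp2, Prm1, Prm2, Meig1 and Ldhc) summed to 4460 and 10800 CPM in the testis libraries and to 113 and 72.4 CPM in the TO libraries. A further 65 and 98 cells of testis replicates 1 and 2, in clusters with a median below 2000 UMIs, had both germ and Sertoli genes. Rhox5 and genes listed below as regulated by androgen were among their leading genes. This kept them from a germ cell name, and they were left unnamed. An alternative counted them as Sertoli cells.

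Rhox5 was nearly absent from TO Sertoli cells. No library came from the starting cells, so a change over the culture was not measured. Rhox5 had 6.56 and 2.82 CPM in the TO libraries, replicate 1 first, and 335 and 246 CPM in the testis libraries, from 94, 21, 780 and 283 UMIs. Both TO libraries lay far below both testis libraries, and counting error alone put the TO values between 1.75 and 8.02 CPM. The mean was 4.69 ± 2.64 CPM in TOs and 291 ± 63.0 CPM in testes (SD, n = 2 each). In edgeR's quasi-likelihood test across all genes the log2 fold change was −5.76 (SE 0.36, adjusted p = 8.59e-05), which is a level 54.2-fold lower in TOs. Calls were made at an adjusted p below 0.01 and a change of more than 2-fold, as in the thresholds of the study.

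Eppin was called lower as well, with a smaller fitted change. It was at 113 and 118 CPM in the TO libraries and at 375 and 251 CPM in the testis libraries, again without overlap. The log2 fold change was −1.32 (SE 0.22, adjusted p = 0.00400 by edgeR), 2.51-fold lower in TOs. Rhox5 and Eppin were thus 2 of 4 members called lower in Sertoli cells, where 12.9% of the 12347 genes tested were called lower, 6.84% were called higher and 19.8% were called in either direction.

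Rhox8, in the same X-linked cluster as Rhox5, was at 461 and 406 CPM in the TO libraries and at 511 and 397 CPM in the testis libraries. The groups overlapped, and their means of 433 ± 39.0 and 454 ± 80.6 CPM (SD, n = 2 each) differed by less than the spread between libraries. The log2 fold change on edgeR's scale was 0.05 (SE 0.19, adjusted p = 0.859), and its sign turned under some alternatives with no call in any. The difference between the 2 Rhox genes was not itself tested.

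Aard, the member with the most UMIs, was higher in both TO libraries than in both testis libraries. It was at 5250 and 5900 CPM in TOs and at 3170 and 3370 CPM in testes. The log2 fold change was 0.90 (SE 0.20, adjusted p = 0.0117 by edgeR), which missed both thresholds. Without TO replicate 1 it was 1.02 and was called, and with no filter on low counts it was 1.05 and was called.

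**Figure D1:**
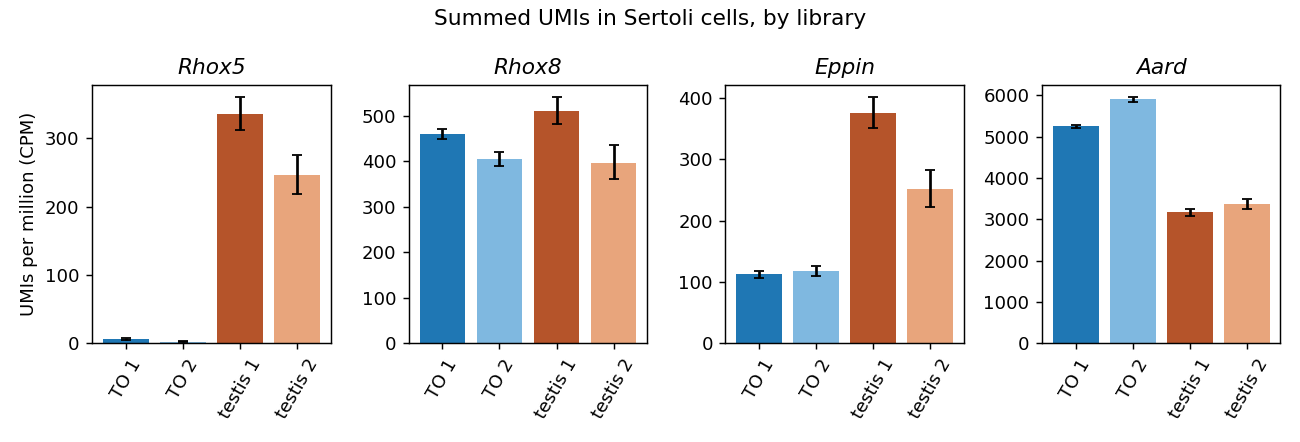
Level of each member in summed Sertoli cells (CPM) in TO replicates 1 and 2 and testis replicates 1 and 2, with exact 95% Poisson intervals that cover counting error only. Rhox5 is at 6.56 and 2.82 CPM in TOs against 335 and 246 CPM in testes, Eppin is lower and Aard higher in both TO libraries, and the Rhox8 bars overlap.

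The members were also read within clusters. In the cluster that held most Sertoli cells of 3 libraries, Rhox5 was at 7.02 and 2.98 CPM in the 1144 and 563 TO cells and at 347 CPM in the 315 cells of testis replicate 1. In the cluster formed by testis replicate 2 alone it was at 265 CPM. Eppin was at 122 and 123 CPM in the TO cells of the shared cluster, at 387 CPM in those of testis replicate 1 and at 276 CPM in the cluster of testis replicate 2. Rhox8 was at 481, 419, 528 and 430 CPM in the same order, and Aard at 5440, 5920, 3260 and 3560 CPM. The shared cluster also held 34 cells of testis replicate 2, in which Eppin was at 62.9 CPM, below both TO values, from 6 UMIs. In the same 34 cells Rhox5 was at 94.4 CPM and Rhox8 at 189 CPM, from 9 and 18 UMIs, and the spermatid gene Prm2 was at 29100 CPM. The lower Eppin level of TOs was thus seen against testis replicate 1 within the shared cluster and not against these few cells. In the third cluster, with 234 and 140 TO cells and 12 cells of testis replicate 1, Rhox5 was at 3.3 and 1.51 CPM in TOs and at 95.6 CPM in the testis, and Eppin was at or below 79.9 CPM in TOs and at 191 CPM in the testis. The fourth cluster held few UMIs of these 2 genes, with Rhox5 from 0 to 3 UMIs and Eppin from 0 to 10 UMIs in each of the 4 libraries. The spermatid gene Tnp1 was at 307 and 379 CPM in the 315 and 105 testis cells of the shared and the separate cluster and at 0 in the TO cells of the shared cluster, against 365 and 1230 CPM in the whole Sertoli sums of testis replicates 1 and 2. The low-UMI testis cells left unnamed had Rhox5 at 436 and 299 CPM. Rhox5 was among the leading genes that set these cells apart, so this level is no independent evidence.

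Shares of cells were read next. After each cell was thinned to 1500 UMIs, with 23 and 8 TO cells below that depth left out, 0.851% of TO replicate 1 and 0.138% of TO replicate 2 Sertoli cells had a UMI of Rhox5, against 34.5% and 23.2% in the testis libraries. The exact 95% Clopper-Pearson intervals were 0.454% to 1.45% and 0.00349% to 0.766% in TOs, and 29.5% to 39.7% and 16.7% to 30.7% in testes. Unthinned, the shares were 4.26%, 2.59%, 73.2% and 51.7%. Macrophages, which should lack the gene, had a UMI of Rhox5 in 0 of 262 and 0 of 694 TO cells, which allows shares of up to 1.15% and 0.432%, and in 0.862% and 1.36% of testis cells, all unthinned. Their median depths were 6326.5, 5979.5, 3069.5 and 4275 UMIs, against 9986, 11340, 6765 and 8808 UMIs in Sertoli cells. The unthinned TO Sertoli shares were thus above the limits set by TO macrophages.

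The thinned share with a UMI of Eppin was 11.8% and 17.9% in TO Sertoli cells and 38.7% and 27.8% in testis Sertoli cells. For Rhox8 43.3% and 42.5% of TO cells and 47.0% and 40.4% of testis cells had one, and for Aard 96.1% and 97.8% of TO cells and 94.3% and 91.4% of testis cells. With 2 libraries a group, an exact two-sided permutation test over libraries cannot go below p = 0.333, and Rhox5, Eppin and Aard gave that value. All 4 members were found together in 63.2% and 42.4% of unthinned testis Sertoli cells and in 3.03% and 1.77% of TO Sertoli cells, where Rhox5 had the lowest share of the 4. In testis replicate 1, 80.3% of the cells with a UMI of Rhox8 also had one of Rhox5, and in testis replicate 2, 63.5% did. In the TO libraries 4.89% and 3.03% did.

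Outside Sertoli cells the members were mostly low. Macrophages were read as a rough gauge of free RNA, and whether their UMIs came from it was not tested. In them Rhox8 had 21.4 and 7.84 CPM in TOs and 5.56 and 6.46 CPM in testes. Eppin had 4.70, 2.91, 8.35 and 8.08 CPM and Aard 206, 83.2, 30.6 and 30.7 CPM in the same order. Rhox5 was at 0.0827 to 2.68 CPM in myoid cells, from 1 to 5 UMIs a library, and did not pass the filter on low counts there. In Leydig cells it was at or below 3.08 CPM in every library, and in germ cells it was at 0.996 and 0.327 CPM in TOs and at 4.38 and 2.18 CPM in testes. The testis germ sums held 150 and 83 UMIs of Rhox5 and leave out the unnamed low-UMI cells, which held 62 and 63. Rhox5 was among the genes that kept those cells from a germ cell name, so the naming rule in part sets this level. Genes that stood 5 times or more higher outside a class than in it, by CPM and in either condition, were left out of its fit, which took out Rhox5 and Aard in Leydig cells, Rhox8 and Eppin in myoid cells and all 4 members in germ cells.

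Rhox8 in Leydig cells was at 44.0 and 15.3 CPM in TOs and at 11.8 and 6.72 CPM in testes (log2 fold change 1.61, SE 0.54, adjusted p = 0.113 by edgeR). Eppin in Leydig cells was at 18.4 and 5.30 CPM in TOs and at 13.7 and 41.2 CPM in testes (log2 fold change −1.31, SE 0.68, adjusted p = 0.269 by edgeR). Neither was called, where 2.53% of the 12181 genes tested in Leydig cells were called, 1.68% lower and 0.846% higher. Aard in myoid cells was at 356 and 169 CPM in TOs and at 159 and 172 CPM in testes (log2 fold change 0.66, SE 0.33, adjusted p = 0.152 by edgeR). It was not called, where 20.8% of the 14326 genes tested in myoid cells were called, 16.8% lower and 3.99% higher. Without testis replicate 1 or without testis replicate 2, 0 genes were called in myoid cells by edgeR, with 4026 and 5332 at an unadjusted p below 0.05. The Eppin level of testis replicate 2 stood out among the Leydig values. Unthinned, 30.5% of its Leydig cells had a UMI of Eppin, against 7.64% in testis replicate 1 and 2.72% of macrophages in testis replicate 2. Depth differed in the same order, with medians of 9823, 6193 and 4275 UMIs, and its part in these shares was not tested.

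The members were also read against Cldn11, Cst12 and Gatm, abundant Sertoli transcripts that were summed in each class. The sum was not limited to Sertoli cells: in macrophages it was at 564 and 684 CPM in TOs and at 299 and 475 CPM in testes, and the ratio of Aard to it was 0.364, 0.122, 0.102 and 0.0646. The ratio of Aard to this sum was 1.07 and 1.13 in TO Sertoli cells and 1.02 in the spermatogonia-like cells of both TO libraries, although the Aard level there was 171 and 69.8 CPM. It was 0.838 and 0.832 in testis Sertoli cells and 0.966 and 0.604 in testis spermatogonia-like cells. In testis Leydig cells the ratio was 15.8 and 27.3, and in testis myoid cells it was 3.16 and 3.75, with Aard at 217 and 312 CPM in Leydig cells and 159 and 172 CPM in myoid cells. In these classes Aard thus stood higher against the Sertoli transcripts than it did in Sertoli cells. Eppin against the same sum was 1.00 and 3.62 in testis Leydig cells, compared with 0.0993 and 0.0620 in testis Sertoli cells. TO germ cells as a whole had Aard at 441 and 109 CPM against 32.1 and 24.2 CPM in testes. In the 155 spermatid-like cells of TO replicate 1 Aard was at 2350 CPM, and the Sertoli markers Sox9 and Cldn11 were at 208 and 422 CPM, against 1.24 and 4.07 CPM in testis replicate 1. The spermatid gene Prm1 was at 1.24 CPM in these TO cells and at 4720 CPM in testis replicate 1.

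The small endothelial class, outside the 4 classes summed, also held members in TOs. Eppin was above its level in TO Sertoli cells in both libraries, and Rhox5 was so beyond counting error in TO replicate 2. Its 62 and 80 TO cells had Eppin at 159 and 403 CPM, against 6.08 and 0 CPM in the 133 and 88 testis cells. Rhox5 was at 7.56 and 17.1 CPM there, from 3 and 12 UMIs with counting intervals of 1.56 to 22.1 and 8.84 to 29.9 CPM. In TO Sertoli cells it was at 6.56 (5.30 to 8.02) and 2.82 (1.75 to 4.31) CPM. It was not found in the testis endothelial cells, where 3 UMIs would give 4.56 and 5.03 CPM. Endothelial genes such as Cldn5 and Esam led the cluster together with Wfdc2, a protease inhibitor gene of duct epithelium. Whether cells of another type were among these TO cells was not tested.

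**Figure D2:**
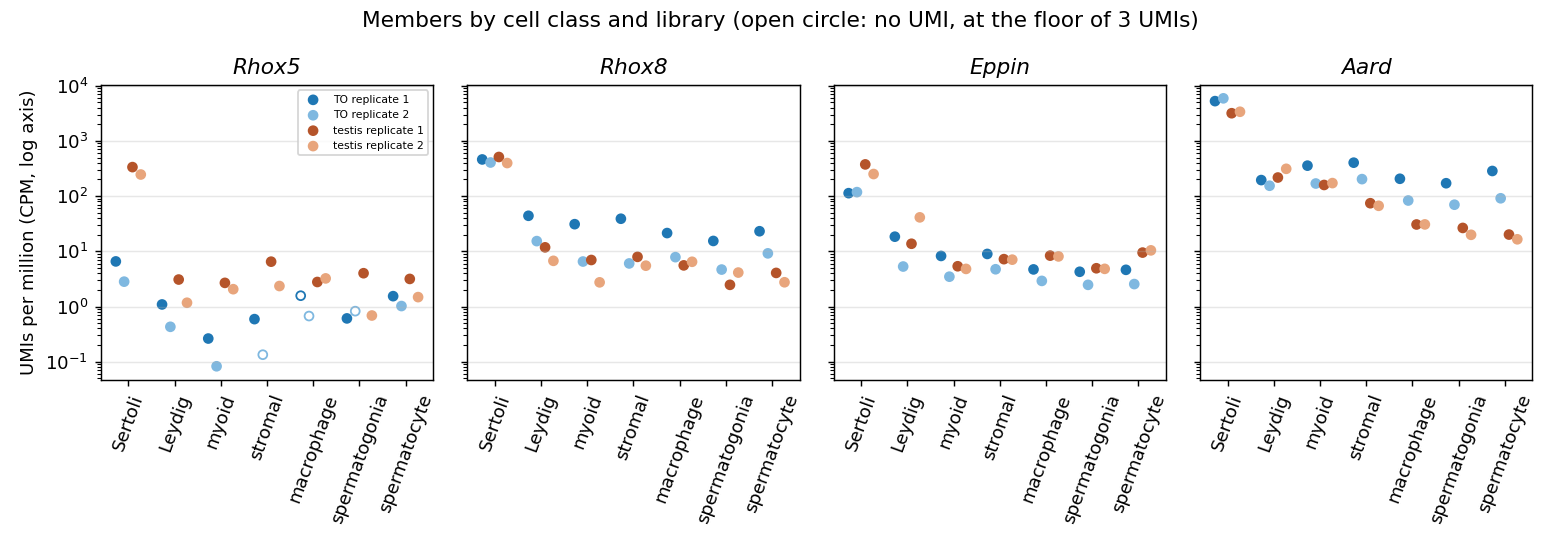
Level of the 4 members (CPM, log axis) in 7 cell classes of the 4 libraries, with open circles for no UMI drawn at the level of 3 UMIs. Among these classes all 4 members are highest in Sertoli cells of every library. Rhox5 stands least above the rest in TOs. It is at 6.56 and 2.82 CPM in TO Sertoli cells, against at most 1.54 and 1.02 CPM in the other classes of the same libraries.

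The supply side of the pathway differed between conditions and between the TO libraries. Cyp17a1, which encodes the enzyme that turns progestins into androgens, was at 1160 and 82.0 CPM in TO Leydig cells and at 3780 and 11000 CPM in testis Leydig cells. TO replicate 2 was thus the library with the lower Cyp17a1, 14.1-fold below TO replicate 1 (95% counting interval 13.4 to 14.9). The difference between TOs and testes was not called (log2 fold change −3.68, SE 1.15, adjusted p = 0.0954 by edgeR) and the libraries of each group differed widely. Star, the cholesterol importer of mitochondria, was at 37.1 and 11.0 CPM in TOs and at 399 and 720 CPM in testes and was called lower (log2 fold change −4.63, SE 0.64, adjusted p = 0.00759 by edgeR). It was 1 of 6 genes of androgen supply called, where 1.68% of the genes tested in Leydig cells were called lower. With no filter on low counts, 0 genes were called in Leydig cells by edgeR, with 3596 at an unadjusted p below 0.05, whereas DESeq2 called 957. With the replicate number as a block 0 genes were called in Leydig cells by edgeR, so the call of Star was lost there too. Hsd17b3, Lhcgr, Cyp11a1 and Hsd3b1 were not called, with log2 fold changes of −4.77, −1.22, −0.64 and 0.89 and adjusted p-values of 0.0848, 0.0396, 0.370 and 0.178 by edgeR.

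Between the TO libraries, the genes of androgen supply and the Sertoli members did not move alike. In TO replicate 2, Hsd17b3 was 15.9-fold, Insl3 15.2-fold, Star 3.36-fold, Cyp11a1 2.04-fold and Lhcgr 1.26-fold below TO replicate 1 in Leydig cells. In Sertoli cells of the same library, Rhox5 was 2.32-fold lower (95% counting interval 1.44 to 3.93) and Rhox8 1.14-fold lower (1.09 to 1.19). Eppin was at 1.05 of its level in TO replicate 1 (0.964 to 1.14), and Aard was at 1.12 (1.11 to 1.14).

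Thus 1 of the 4 members, Rhox5, was lower by more than 2-fold in the library with low Cyp17a1, where 2.45% of the 11006 genes with at least 50 UMIs were and 0.427% were higher by as much. The median gene was at 0.944 of its level in TO replicate 1. The ratio of Rhox5 was 0.430, and 1.44% of these genes had a lower one, whereas 34.3%, 72.3% and 83.3% had a lower ratio than Rhox8, Eppin and Aard. This sets 1 library against 1 library, so it has no replicate check, and what else differed between the cultures cannot be told apart from Cyp17a1. Leydig RNA in Sertoli sums also moved with the library: the Leydig markers summed to 347 and 257 CPM in the Sertoli cells of TO replicates 1 and 2, and its part in the ratios was not tested.

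In the testis libraries Cyp17a1 and the members were read in the same way. Cyp17a1 was at 2.92 of its level in testis replicate 1 in the Leydig cells of testis replicate 2, and Hsd17b3 at 12.9. In the Sertoli cells of that library Rhox5 was at 0.734 (0.639 to 0.842), Eppin at 0.670 (0.584 to 0.766), Rhox8 at 0.777 (0.696 to 0.866) and Aard at 1.06 (1.02 to 1.11) of the level in testis replicate 1. None of the 4 moved by more than 2-fold, where 3.59% of 8435 genes were lower and 1.43% higher by as much. Over the 4 libraries, ordered by Cyp17a1 from TO replicate 2 through TO replicate 1 and testis replicate 1 to testis replicate 2, Rhox5 was at 2.82, 6.56, 335 and 246 CPM. Rhox8 and Eppin were also lower in the last library than in testis replicate 1.

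**Figure D3:**
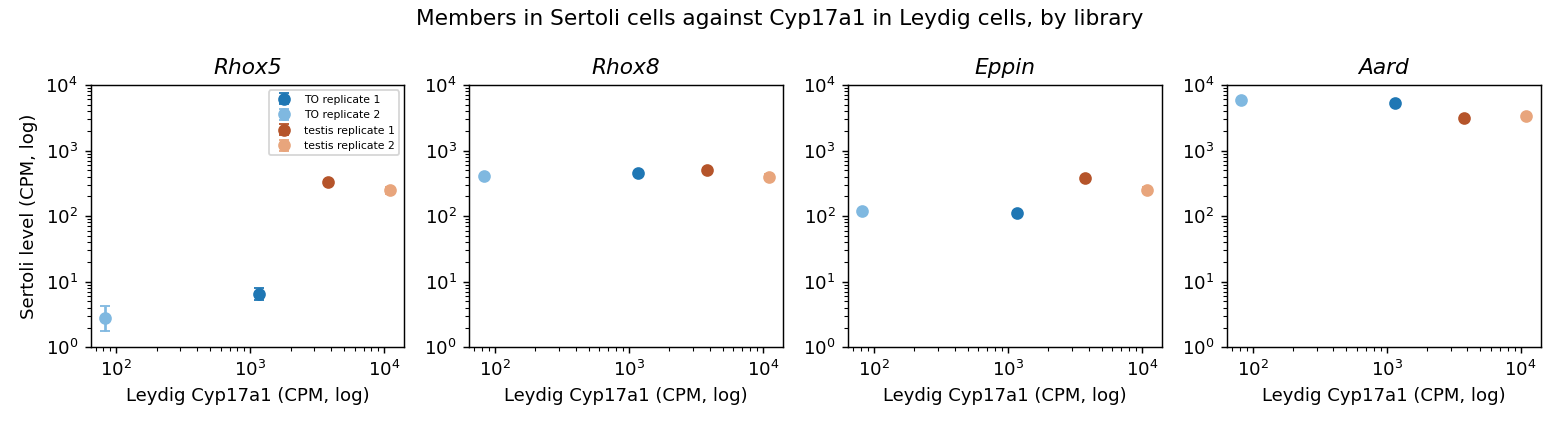
Level of each member in Sertoli cells (CPM, log axis) against Cyp17a1 in Leydig cells of the same library (log axis), with 1 point per library and exact 95% Poisson intervals. Between the TO libraries Cyp17a1 differs 14.1-fold while Rhox8, Eppin and Aard stay within 1.14-fold, and Rhox5 differs 2.32-fold.

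Among 11 genes of cofactors, chaperones and an androgen-converting enzyme that act in steroid signalling, 10 were tested in Sertoli cells and 0 were called by edgeR, with 5 at an unadjusted p below 0.05 and 0 called by DESeq2. Their median log2 fold change was 0.23, beside 0.07 for all genes tested. Ncor1, a corepressor of nuclear receptors, had the highest log2 fold change of the list at 0.79 (adjusted p = 0.00708 by edgeR), below the fold threshold. Fkbp5, a chaperone of steroid receptors that androgen and glucocorticoid raise in many tissues, was at 85.9 and 96.0 CPM in TOs and 147 and 158 CPM in testes (log2 fold change −0.62, adjusted p = 0.0233 by edgeR). Fkbp4 (0.34), Hsp90ab1 (0.62) and Ncoa2 (−0.56) were not called in Sertoli cells either. In myoid cells 10 genes of this list were tested. Of these 1 was called higher and 1 lower, where 3.99% and 16.8% of all genes tested were. Fkbp5 was higher there, at 291 and 374 CPM in TOs and 156 and 150 CPM in testes (log2 fold change 1.13, adjusted p = 0.00752 by edgeR). Fkbp4 was lower (log2 fold change −1.50, adjusted p = 0.00691 by edgeR).

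Of 12 further genes listed as regulated by androgen in Sertoli cells, 11 were tested. The list was drawn up with earlier results of these data known, so its counts describe these genes and are no independent evidence. Of these 11, 5 were called lower in TOs and 0 higher, 45.5% lower beside the 12.9% of all genes, with a median log2 fold change of −0.93 beside 0.07. The water channel Aqp8 was at 0.767 and 0.806 CPM in TOs and at 187 and 208 CPM in testes (log2 fold change −7.83, SE 0.23). Corin, a membrane serine protease, was at 5.65 and 2.42 CPM against 141 and 149 CPM, and Drd4, a dopamine receptor, at 9.21 and 5.11 CPM against 304 and 140 CPM. Cldn3, a tight junction claudin, was at 3.07 and 2.28 CPM against 79.5 and 73.9 CPM, and the beta-defensin Defb45 at 54.7 and 32.1 CPM against 459 and 215 CPM. In each of these 5 the TO and testis libraries were far apart. Corin and Drd4 were also called lower in myoid cells by edgeR, 2 of 4 genes of the list tested there, where 16.8% of all genes tested were. In myoid cells Corin was at 1.75 and 0.744 CPM in TOs and 48.2 and 53.5 CPM in testes. Drd4 was at 58.7 and 49.2 CPM in TOs there and at 119 CPM in both testis libraries.

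The remaining 6 tested genes of the list were not called. Tubb3, a neuronal-type tubulin that Sertoli cells also make, was at 839 and 991 CPM in TOs and at 855 and 869 CPM in testes. The cystatin Cst12 had 1980 and 2170 CPM in TOs and 2110 and 2050 CPM in testes. Cst9, another cystatin, was at 103 CPM in TO replicate 1 and at 365 to 417 CPM in the other 3 libraries. Defb36, another beta-defensin, was at 1090 and 944 CPM in TOs and at 698 and 451 CPM in testes, so the defensins did not share a direction. The tight junction gene Ocln had a log2 fold change of 0.64, and Gpd1, which links glycolysis to lipid synthesis, had −0.93. The list thus held both genes called lower, like Rhox5 and Eppin, and genes that were not called, like Rhox8 and Aard.

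**Figure D4:**
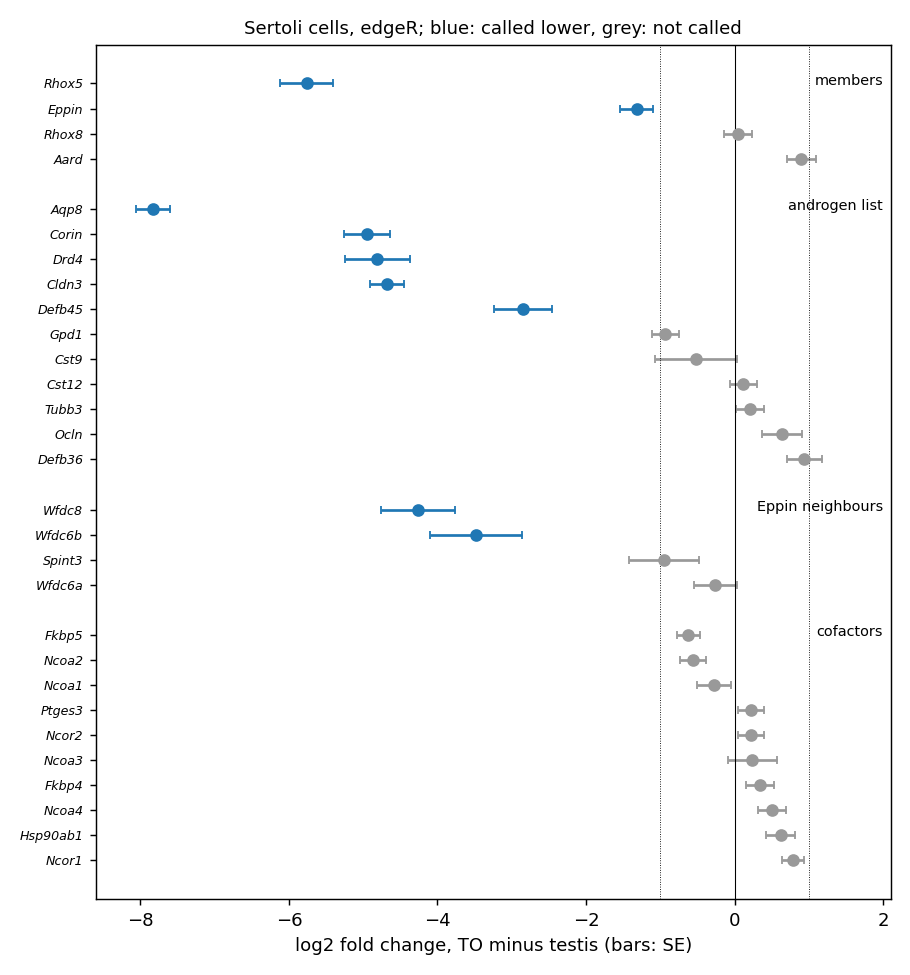
Fitted log2 fold change (TO minus testis, with SE) in Sertoli cells for the members and 3 listed groups, with dotted lines at a 2-fold change. Blue points are the genes called lower: Rhox5 and Eppin, 5 genes of the androgen list and 2 neighbours of Eppin; no cofactor or chaperone is called.

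The genomic neighbours of the members were also read. Eppin lies in a cluster of protease inhibitor genes, and of the 4 neighbours tested 2, Wfdc6b and Wfdc8, were called lower in TO Sertoli cells, where 12.9% of all genes tested were. These neighbours too were listed with earlier results known. Wfdc6b was at 2.09 and 0.538 CPM in TOs and at 22.3 and 11.3 CPM in testes, and Wfdc8 at 0.628 and 0.538 CPM against 10.3 and 15.6 CPM. Wfdc6a was at 37.2 and 22.8 CPM against 45.1 and 31.3 CPM, with overlap between the groups, and its log2 fold change was −0.26 (adjusted p = 0.514 by edgeR). Spint3, another protease inhibitor gene, was at 6.63 and 13.2 CPM against 15.0 and 27.8 CPM and was not called (log2 fold change −0.95, adjusted p = 0.157 by edgeR). Of 34 Rhox genes, Rhox5 and Rhox8 passed the filter on low counts in Sertoli cells. Every other Rhox gene was at or below 1.74 CPM in each Sertoli sum. Of the 7 genes of epididymal epithelium, which also makes Eppin and Rhox5, Sult1e1 reached 34.3 CPM in the Sertoli cells of TO replicate 1 and was at 1420 CPM in Leydig cells of that library, and the others stayed at or below 1.74 CPM in Sertoli cells. The defining Lcn5, Adam7 and Crisp1 were at 0 in every Sertoli sum.

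The genes most like each member were read from the correlation of log2(CPM + 1) over 36 sums of cell classes and libraries, which share libraries and depth, so r is a description. Rhox5 was followed by Dmrtc1b (r = 0.869), Aqp8 (0.861), Gm34684 (0.826), Tsx (0.821) and Gm3880 (0.811). In Sertoli cells Dmrtc1b was at 5.02 and 2.55 CPM in TOs and at 102 and 143 CPM in testes, and Tsx at 95.1 and 82.9 CPM against 576 CPM in both testis libraries. Rhox8 was followed by Gstm6 (0.960), Tmem184a, Shbg, Map3k21 and 4933402E13Rik, and Aard by Ttyh1 (0.952), Gstm6, Tubb3, Drp2 and Pip5k1b. Eppin was followed by Wfdc6a (0.884), its genomic neighbour, and by Il17re, Gas2l1, Slc26a7 and Calr4. Among the members, Rhox8 and Aard were the closest pair (0.922), and Rhox5 and Aard the least close (0.463).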

How the data were processed

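The authors aligned the reads with Cell Ranger 7.1.0 to mm10, per the submitters' processing notes, and deposited raw UMI counts per gene and barcode for each library (10x Chromium Single Cell 3′ v3.1). Barcodes outside 1000 to 5000 genes, above 20000 UMIs or above 10% mitochondrial UMIs were dropped, doublets were removed by Scrublet score (1119 to 1715 barcodes a library), and cells were clustered with scanpy 1.11.5 after Harmony (leidenalg 0.10.2) and named from fixed markers. The naming rule was changed for 1 myoid cluster, and 2 low-UMI clusters were left unnamed, after the clusters had been seen. These 2 scored highest for spermatid markers. A germ cell name was refused where a member or a listed androgen-regulated gene was among the leading genes. Raw UMIs were summed per library and class and tested with edgeR 4.0.16 (TMM, filterByExpr, quasi-likelihood test, Benjamini-Hochberg adjustment over all genes tested), with DESeq2 1.42.0 as an alternative, in R 4.3.3. Calls required an adjusted p below 0.01 and a fold above 2. The study does not state its contamination rule, and the 5-times rule stands in for it. Intervals are exact and cover counting error only. On simulated Sertoli sums edgeR called 83 of 98 genes changed by 2 on the log2 scale, 98 of 98 changed by 4 and 0 of 13114 unchanged. DESeq2 called 75, 92 and 0 of the same genes. The simulation gave all genes a common dispersion and held no free RNA and no change as small as those of Eppin or Aard. It therefore does not measure false calls in the real sums. Other named genes were those of fixed lists that passed the call in Sertoli cells, the most abundant ones where few passed, and the 5 genes most like each member. Fkbp5, Cst9, Wfdc6a, Spint3 and the further uncalled genes of the lists, the listed genes given in myoid cells, and the endothelial class, were picked after their values were seen. The members and lists were chosen with earlier results of these data known. Some listed genes are not reported here, and counts over their lists leave them out.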

Additional observations from a re-analysis of the deposited data

Results flagged for a closer look

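The levels of Aard in TOs and testes stood in opposite order in Sertoli and Leydig cells, with no test passed in either. The ratio of its mean CPM in TOs over that in testes was 1.7 in the Sertoli class and 0.66 in the Leydig class, with no overlap between TO and testis libraries in either. Aard was not called in Sertoli cells and was left out of the Leydig and germ fits, where it stood 5 times or more higher outside the class. In TO replicate 1 it was at 195 CPM in Leydig cells and 206 CPM in macrophages, with overlapping counting intervals. In TO replicate 2 it was higher in Leydig cells, at 154 CPM (149 to 160) against 83.2 CPM (74.9 to 92.1). Against the 0.66 of Leydig cells, germ cells had 9.77. These differences between classes were not tested. In the germ sum of TO replicate 1, spermatid-like cells with Sertoli genes contributed 1889 of the 3103 Aard UMIs, and their part in the ratio was not tested.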

How the results depend on the processing

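Rhox5 and Eppin were called lower in Sertoli cells under all 17 alternatives, with log2 fold changes of −6.51 to −5.37 and −1.57 to −1.02 and adjusted p-values (edgeR or DESeq2) of up to 0.000713 and 0.00974. The alternative that counted the unnamed testis cells as Sertoli cells is no check of Rhox5, which was among the genes that set those cells apart. Rhox8 was called in none. Its log2 fold change was −0.01 when no upper limits were set, −0.0099 with sums thinned to the smallest library, and −0.11 to 0.22 with 1 library left out, lowest without testis replicate 2. Aard was called at 1.05 with no filter on low counts, and ran from 0.79 to 1.02 with 1 library left out, called without TO replicate 1. The TO minus testis difference in the share of Sertoli cells with a UMI was −28.4 percentage points for Rhox5 at 1500 UMIs, −59.0 unthinned and −51.7 at 3000 UMIs. For Rhox8 it was −0.8 at 1500 UMIs and 3.35 unthinned, and for Aard 4.1 at 1500 UMIs and −0.15 at 3000 UMIs.

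Counts of called genes moved more. In Sertoli cells (2442 genes) they were 3678 with no filter on low counts, 3672 with no gene left out, 867 when genes at 2 times were left out (556 higher and 311 lower, against 844 and 1598), 1446 with thinned sums and 1698 to 2713 with 1 library left out. In Leydig cells (308) they were 166 with RLE size factors, 957 by DESeq2, 0 with no filter on low counts (3596 at an unadjusted p below 0.05 by edgeR), 2247 with no gene left out, 20 when genes at 2 times were left out, 32 without upper limits, 140 with thinned sums and 95 to 462 with 1 library left out. In myoid cells (2978) they were 1890 with no filter on low counts, 1193 when genes at 2 times were left out and 0 to 3028 with 1 library left out, at 0 by edgeR without either testis library. In germ cells (7853) they were 1053 in spermatogonia-like and 3726 in spermatocyte-like cells alone, and 3584 to 7726 with 1 library left out. The cause of these shifts was not tested. A fit with 1 sample in a group takes its spread from the other group.

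The replicate numbers link the libraries by label only. Same-numbered deviations from the group means correlated at 0.138 in Sertoli, −0.0192 in Leydig, 0.173 in myoid and 0.0514 in germ cells. With the replicate block 3143 genes were called in Sertoli cells, 0 in Leydig cells (3151 at an unadjusted p below 0.05 by edgeR), 3938 in myoid and 8087 in germ cells, and Rhox5 was at −5.83, Eppin at −1.30, Rhox8 at 0.06 and Aard at 0.89 with no change of call. With 2 libraries a group and 21 to 94 UMIs of Rhox5 in TO Sertoli cells, depth limits the difference between the TO libraries.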
